A study of Homo sapiens with 2 samples.

Results

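The chaperonin TRiC, also called CCT, is built from 8 related subunits, and the mRNAs of all 8 (TCP1, CCT2, CCT3, CCT4, CCT5, CCT6A, CCT7 and CCT8) were followed in RNA that co-precipitated with LRPPRC. They were chosen by gene name and not by a threshold of level, though earlier results of these data were known. Each name had exactly 1 row among the 21262 rows of the expression table. LRPPRC is an RNA-binding protein of mitochondria and cytoplasm. The wild-type line A549, derived from an adenocarcinoma of the lung, was lysed, 2 μg of an antibody against LRPPRC pulled down the protein together with RNA, and 2 RIP-seq libraries, replicate 1 and replicate 2, were used here. These libraries are 1 condition, and the series description calls them technical replicates whereas the paper calls them biological, so the spread between them may be technical only. No input or IgG library was analysed here. A value therefore describes the precipitate alone, and strong binding of a scarce mRNA and weak binding of an abundant one cannot be told apart.

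TRiC folds newly made proteins in the cytosol. Its 8 subunits occupy fixed places in a ring, with 1 copy of each, and 2 such rings stacked back to back enclose the folding chamber, whose lid closes upon ATP hydrolysis. Actin and tubulin depend on it to reach their native state, and so do many proteins with WD40 repeats, among them the cell cycle activator CDC20. Prefoldin, a smaller chaperone, hands it actin and tubulin chains, and phosducin-like proteins act with it as co-chaperones. Since each ring takes the same number of each subunit, the levels of the 8 mRNAs can be set against a known ratio of the proteins.

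The subunits are encoded at separate loci, of which those of CCT4 and CCT7 are both on chromosome 2, and have mRNAs of similar coding length, 1596 to 1671 bases in the canonical transcripts of GENCODE 44 on GRCh38. The whole transcripts range from 1847 bases for CCT7 to 3293 for CCT5, mainly because the 3′ UTR spans 144 bases in CCT7 and 1606 in CCT5. CCT3 lies on chromosome 1 from 156308968 to 156367873, CCT4 on chromosome 2 from 61868085 to 61888671, CCT7 on chromosome 2 from 73233420 to 73253021 and CCT5 on chromosome 5 from 10249929 to 10266389. TCP1 lies on chromosome 6 from 159778498 to 159789703, CCT6A on chromosome 7 from 56051685 to 56063989, CCT2 on chromosome 12 from 69585426 to 69601570 and CCT8 on chromosome 21 from 29055805 to 29073797. Introns of TCP1 host the small nucleolar RNAs SNORA20 and SNORA29, and those of CCT6A host SNORA15 and SNORA22B.

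Several subunits have pseudogene copies elsewhere in the genome, with which reads could be shared. Copies covering at least 50% of the transcript were found at 14 loci for 6 subunits, and none for CCT2 or CCT3. Only CCT8 had a copy of at least 95% identity, namely CCT8P1, a processed pseudogene on chromosome 1 of GRCh38 from 147203124 to 147204984, with 95.7% identity over 99.7% of the transcript. The closest copies of the next 3 subunits were TCP1P1, with 94.4%, CCT6P2, with 91.6%, and CCT5P2, also with 91.6%. The first 30 coding bases of these 4 subunits are printed beside the same stretch of the copy, 5′ to 3′ on the strand of the gene, to show how closely the copies follow the mRNAs, and capitals mark the bases that differ within a pair. They come from GRCh38, at chr21:29073561-29073590 (minus strand) for CCT8 and chr1:147204903-147204932 (minus) for CCT8P1, chr6:159789439-159789468 (minus) for TCP1 and chr7:42794906-42794935 (plus) for TCP1P1, chr7:56051849-56051878 (plus) for CCT6A and chr5:14640989-14641018 (minus) for CCT6P2, and chr5:10250341-10250370 (plus) for CCT5 and chr13:78908921-78908950 (plus) for CCT5P2.
CCT8: atggcgcttcaCgttcccaaggctccgggc
CCT8P1: atggcgcttcaAgttcccaaggctccgggc
TCP1: atggagGggcctttgtccgtgttCggTgac
TCP1P1: atggagAggcctttgtccgtgttTggGgac
CCT6A: atggcGgCggtgaagaccctGaaccccaag
CCT6P2: atggcAgTggtgaagaccctAaaccccaag
CCT5: aTggcgtcCatggggaccctcgccttCgat
CCT5P2: aCggcgtcTatggggaccctcgccttTgat

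CCT8 and CCT8P1 differ at 1 of these 30 bases, and each of the other pairs at 3. In CCT5P2 the start codon itself is changed. Along the whole CCT8 transcript, 12.5% of all windows of 50 bases had no difference from CCT8P1, 0.342% of windows of 100 bases and 0% of windows of 150 bases. For TCP1 and TCP1P1 4.65% of windows of 50 bases were identical, for CCT6A and CCT6P2 3.04%, for CCT5 and CCT5P2 0.771%, and no window of 100 bases was. None of the named copies had a row of its own under its pseudogene name. CCT6A also has unprocessed copies on its own chromosome, CCT6P1 and CCT6P3, with 89.6% and 90.1% identity. The read length and the handling of reads with several matches are not given in the sources at hand, so the part of shared reads in the level of CCT8 was not tested.

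All 8 subunit mRNAs were above FPKM 30, the threshold the study used, in both RIP libraries. FPKM is a fragment count divided by transcript length and by the total mapped in that library. Among the 10441 named genes that reached FPKM 1 in both libraries, all 8 subunits included, the mean of the libraries was above 30 for 13.6% and both libraries were above 30 for 13.2%, and among the 2868 of them with a canonical transcript in the length range of the subunits the mean was above 30 for 12.1%. The median subunit had 65.7 FPKM, against 6.81 for the median gene of that background, a ratio of 9.66, and 95.2% of the background lay below it. Of the 8, CCT8 was nearest to the threshold, and 6 were above FPKM 50, which 6.89% of the background exceeded. Together the 8 mRNAs took a share of 0.338% of all FPKM in replicate 1, and of 0.335% in replicate 2.

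**Figure D1:**
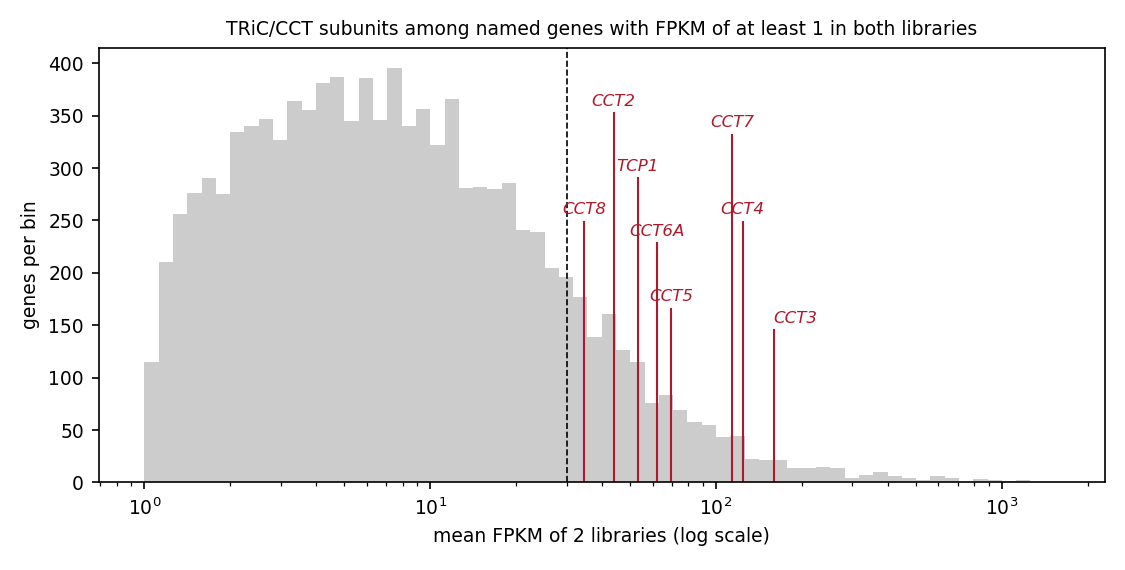
Number of genes per bin (y axis) by mean FPKM of the 2 LRPPRC RIP libraries on a log scale (x axis), for the 10441 named genes that reached FPKM 1 in both. Red lines mark the 8 subunits, which all lie to the right of the dashed line at FPKM 30, from CCT8 at 34.5 to CCT3 at 159.

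The highest subunit was CCT3, the gamma subunit, with 156 FPKM in replicate 1 and 161 in replicate 2. CCT4, the delta subunit, had 129 and 119 FPKM. CCT7, the eta subunit, had 115 and 112 FPKM. On the FPKM scale these 3 mRNAs stood apart from the others, which did not hold for CCT7 once FPKM was multiplied by transcript length. Together they held 60.1% of the summed mean FPKM of the ring, where 8 equal levels would give each subunit 12.5%.

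Below them came CCT5, the epsilon subunit, with 71.2 FPKM in replicate 1 and 67.9 in replicate 2. CCT6A, the zeta subunit of most tissues, had 62.5 and 61.4 FPKM. TCP1, the alpha subunit, after which the family was named, had 52.7 and 53.7 FPKM. The median of the ring lies midway between CCT5 and CCT6A by definition, so these were at 1.06 and 0.942 times its value. TCP1 was at 0.809 times the median.

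The lowest levels were those of CCT2, the beta subunit, with 44.02 and 43.67 FPKM, and of CCT8, the theta subunit, with 34.5 in each library. CCT8 is also the subunit with the near-identical pseudogene. Among all rows CCT3 ranked 129 and CCT8 ranked 1192 by mean FPKM. The named genes next to CCT3 in level were FOXM1, a transcription factor of the cell cycle, at 159 ± 6.01 FPKM (SD, n = 2), and CLTC, the clathrin heavy chain, whose libraries were far apart, at 158 ± 56.1 (SD, n = 2). Next to CCT8 were RPL36A, a ribosomal protein, at 34.5 ± 2.13 FPKM (SD, n = 2), and the mitochondrial MT-ND5, at 34.5 ± 0.0222 (SD, n = 2). With 1 condition only nearness of level can be given, and no likeness of pattern.

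**Figure D2:**
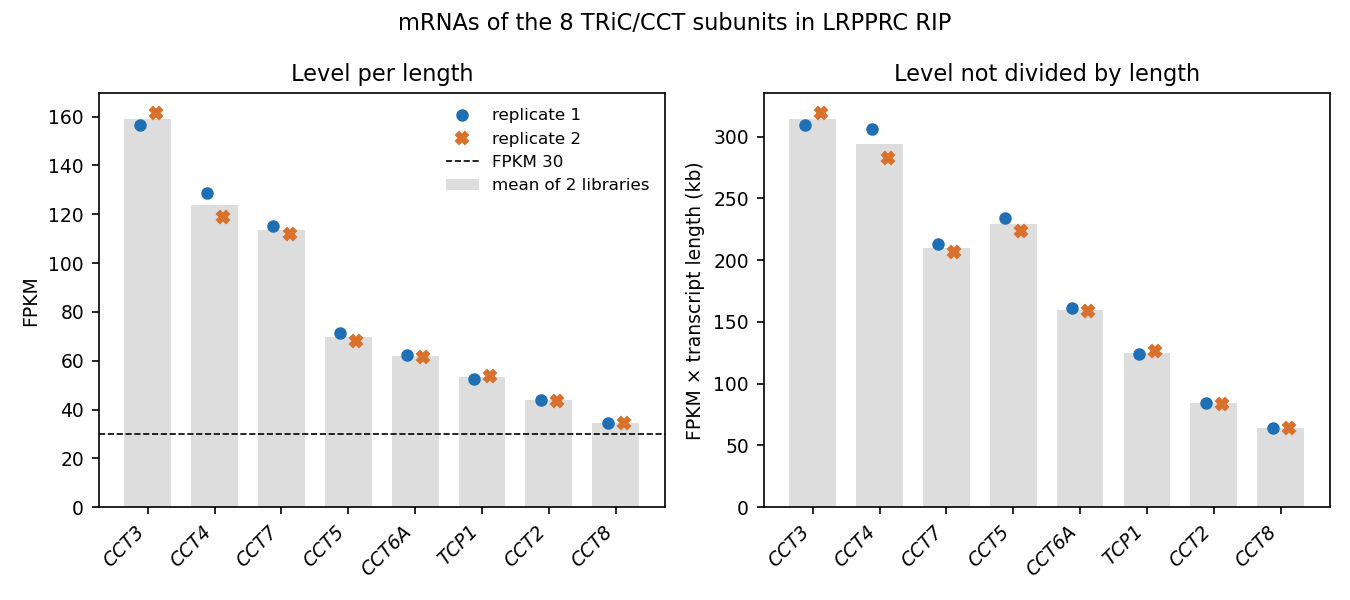
Level of the 8 subunit mRNAs in LRPPRC RIP as FPKM (left, y axis) and as FPKM multiplied by the canonical transcript length in kb (right, y axis), in the order of mean FPKM. Bars are the mean of 2 libraries, circles are replicate 1, crosses are replicate 2 and the dashed line is FPKM 30. CCT3 is highest and CCT8 lowest on both scales, and CCT5 passes CCT7 on the right.

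The order of the 8 subunits was the same in both libraries, and no pair of neighbours in this order overlapped. The narrowest gap was between CCT4 and CCT7, where the lower CCT4 value, 119, was 1.03 times the higher CCT7 value, 115. It was followed by CCT5 over CCT6A, at 1.09 times. The widest gap was between CCT7 and CCT5, at 1.57 times. Genes were not tested against each other, since there are only 2 libraries, and the gap between CCT4 and CCT7 is smaller than the distance between the libraries of CCT4 itself.

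The subunit mRNAs thus differed by far more than their libraries did. CCT3 was 4.61 times CCT8 by the means, 4.54 times in replicate 1 and 4.68 times in replicate 2. The SD of log2 mean FPKM between the 8 subunits was 0.78, and the SD between the libraries of a subunit, averaged over the 8 as a root mean square, was 0.038 on the same scale, a ratio of 20.3. Without CCT8 the highest subunit was 3.62 times the lowest and the SD was 0.70. Between libraries, CCT4 moved most, by 7.75% of its replicate 1 value, with a log2 ratio of replicate 2 to replicate 1 of -0.12. The median coefficient of variation was 1.69% for the subunits and 1.87% for the 1418 background genes above FPKM 30. Of the subunits 5 were lower in replicate 2, against 56.8% of those 1418 genes.

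FPKM divides by transcript length, and the lengths the authors used may differ from those of the later annotation used here. With FPKM multiplied by the canonical length in kb, which approximates the share of fragments, CCT3 had 314, CCT4 294, CCT5 229, CCT7 210 and CCT8 63.9. The order changed only in that CCT5, with its long 3′ UTR, stood above CCT7. The ratio of highest to lowest was then 4.91. Over the 8 subunits log2 mean FPKM and transcript length had a Pearson correlation of 0.0035 and a Spearman correlation of 0.21.

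The GC content of the transcripts was highest in CCT7, at 51.6%, and CCT3, at 50.6%, and lay between 41.5% and 44.5% in the other 6. CCT8, the lowest in level, had the lowest GC content. Over the 8 subunits the Spearman correlation of mean FPKM and GC content was 0.81 and Pearson's r with log2 mean FPKM was 0.75, whereas over the 10370 background genes with a matched transcript the Spearman correlation was -0.12. These are descriptions over genes of the same 2 libraries, and CCT4, second in level with 42.9% GC, does not follow the order.

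Some subunit exons overlap other genes. The canonical exons of TCP1 share 454 bases, 19.3% of their length, with exons of ACAT2, a thiolase gene on the opposite strand, which had 10.6 FPKM in each library. Of the CCT5 exons 52.7% lie opposite a long noncoding RNA, and of the CCT4 exons 11.6% and 7.62% lie opposite a pair of others. CCT8 shares 85 exon bases, 4.58%, with another on the opposite strand. The library kit keeps the strand, but no source at hand says whether the quantification used it, so the part of these genes in the levels of TCP1, CCT5, CCT4 and CCT8 was not tested.

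Around the ring the subunits follow each other in the order TCP1, CCT4, CCT2, CCT5, CCT7, CCT8, CCT6 and CCT3, which closes on TCP1. The 3 highest mRNAs by FPKM, CCT3, CCT4 and CCT7, encode subunits that do not touch each other within a ring. With FPKM multiplied by transcript length in kb, CCT5, at 229, stood above its ring neighbour CCT7, at 210. On that scale the largest ratio of ring neighbours was that of CCT4, at 294, over CCT2, at 84.0. CCT7, at 114 ± 2.31 FPKM (SD, n = 2), sits beside CCT8, at 34.5 ± 0.0177 (SD, n = 2), and by FPKM this was the largest ratio of ring neighbours, 3.29. CCT3, at 159 ± 3.53 (SD, n = 2), sits beside TCP1, at 53.2 ± 0.720 (SD, n = 2), with a ratio of 2.99. Over the 8 pairs of ring neighbours the ratio of the higher to the lower mRNA had a median of 2.45 and ranged from 1.59 to 3.29. Over the 20 other pairs it had a median of 1.66 and ranged from 1.09 to 4.61. The pairs share subunits, no test was made of this difference, and it was looked for after the levels had been seen.

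**Figure D3:**
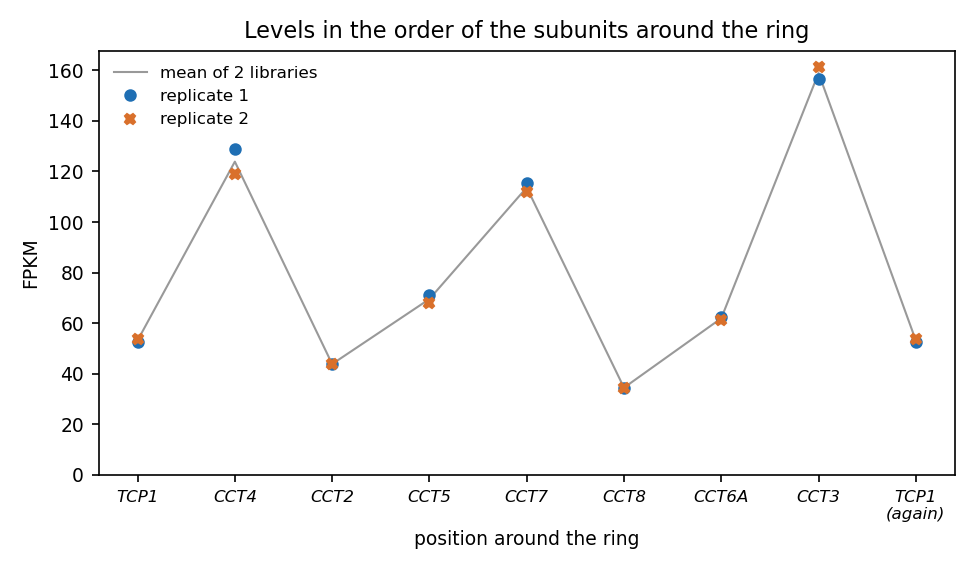
FPKM (y axis) of the 8 subunit mRNAs in the order in which the subunits stand around the ring (x axis), with TCP1 repeated to close it. Circles are replicate 1, crosses are replicate 2 and the line joins the means. CCT4, CCT7 and CCT3 each stand above both of their neighbours.

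With all members counted, other complexes of fixed composition had a wider spread of subunit mRNAs in the same libraries. The 6 mRNAs of the MCM2-7 helicase, which unwinds DNA at replication forks, ranged from 5.82 ± 0.152 FPKM for MCM5 (SD, n = 2) to 74.8 ± 0.342 for MCM7 (SD, n = 2), a ratio of 12.9, with an SD of log2 mean FPKM of 1.36. The 14 mRNAs of the 20S core of the proteasome, the protease that degrades ubiquitinated proteins, ranged from 2.16 ± 0.0573 FPKM for PSMA5 (SD, n = 2) to 378 ± 8.77 for PSMA6 (SD, n = 2), a ratio of 175, with an SD of 1.80. Prefoldin, with 6 mRNAs, had a ratio of 14.2 and an SD of 1.51. The SD of the TRiC/CCT mRNAs, 0.78, was the smallest of the 4, and also without the highest member of each complex, at 0.68, against 1.27 for the proteasome core, 1.37 for MCM2-7 and 1.44 for prefoldin. MCM5 lay far below the other MCM2-7 mRNAs, which had 22.5 to 74.8 FPKM, so the spread of that complex rests largely on MCM5. The ratio of highest to lowest was 4.61 for TRiC/CCT and 3.62 without CCT8. Without MCM5 that of MCM2-7 was smaller than both. The narrowest spread of TRiC/CCT thus depends on which members are left out. An SD without the lowest member was not computed for the other complexes. These are 4 complexes of different size, chosen with earlier results of these data known, and no test between them was made.

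**Figure D4:**
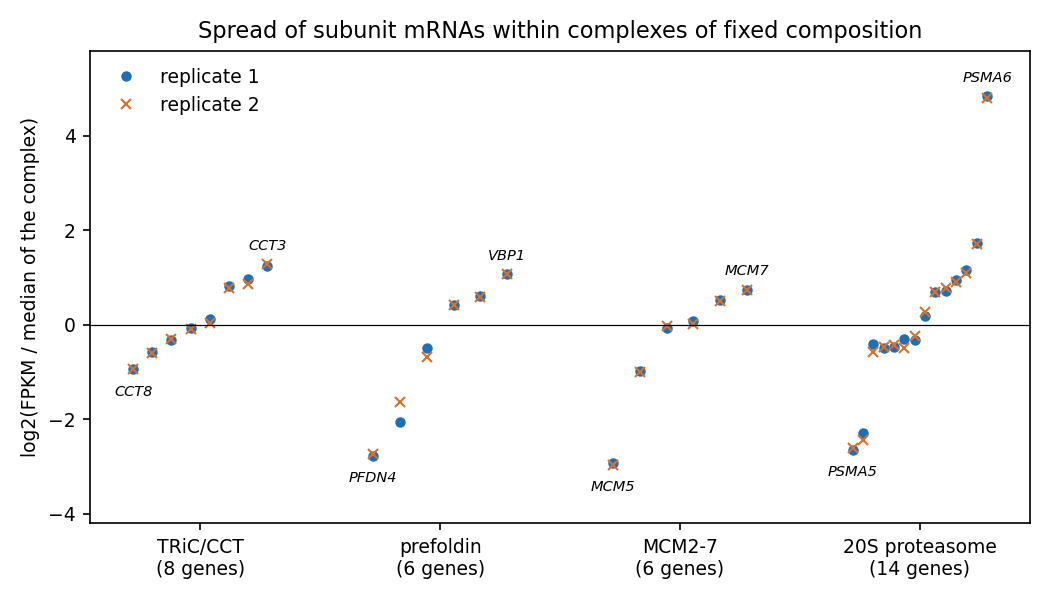
Log2 of FPKM over the median of the complex (y axis) for each subunit mRNA of 4 complexes (x axis), sorted by level. Circles are replicate 1, crosses are replicate 2, and the lowest and highest gene are named. The TRiC/CCT mRNAs span a ratio of 4.61, those of MCM2-7 12.9, of prefoldin 14.2 and of the 20S proteasome 175.

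All 6 prefoldin mRNAs were below the lowest TRiC/CCT subunit, CCT8, as were 88.7% of the background genes. Their median was 5.82 FPKM, so that the median subunit of TRiC/CCT stood 11.3 times higher. The highest was VBP1, prefoldin subunit 3, with 12.2 FPKM in replicate 1 and 12.3 in replicate 2. PFDN1 had 8.81 and 8.80 FPKM, PFDN2 7.74 and 7.76, and PFDN5 4.15 and 3.63. The lowest were PFDN6, with 1.39 and 1.87 FPKM, and PFDN4, with 0.847 and 0.879, which fell below the minimum of 1 set for the background. Prefoldin transcripts are shorter, with a median of 982 bases against 2165 for TRiC/CCT. Background genes in the length range of prefoldin had a median of 5.38 FPKM and those in the range of TRiC/CCT 5.75, so the prefoldin median lay near that of genes of like length and the TRiC/CCT median above 95.1% of them.

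Among the prefoldin-like genes, phosducin-like co-chaperones and tubulin cofactors no mean was above FPKM 30, which 13.6% of the background exceeded, so that counts of 0 in such short lists do not set them apart. Of the 3 prefoldin-like genes, URI1, a scaffold of the prefoldin-like complex, was the highest, at 17.1 ± 0.852 FPKM (SD, n = 2). Of 4 phosducin-like co-chaperones 3 had a row. TXNDC9, which binds TRiC and slows its ATPase, had 6.13 ± 0.582 FPKM (SD, n = 2), PDCL3 3.55 ± 0.0454 and PDCL, which serves the assembly of G protein beta and gamma subunits, 2.23 ± 0.0959. Of the 5 tubulin cofactors, which take over tubulin released from TRiC, 1 was above FPKM 20, against 21.1% of the background, namely TBCE, with 29.0 and 30.3 FPKM. TBCE thus crossed FPKM 30 in replicate 2 alone, and with FPKM multiplied by transcript length in kb it had 159, above TCP1, CCT2 and CCT8.

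Of the paralogs of the subunits, CCT8L2 had no row. CCT6B, the zeta subunit typical of testis, had 0.859 and 0.486 FPKM in the libraries, below the minimum of 1 set for the background. The mean of CCT6A was 92.1 times that of CCT6B, a low value that differed 1.77 times between the libraries. The chaperonin-like proteins of Bardet-Biedl syndrome, which assemble the BBSome of the cilium together with TRiC, were represented by MKKS, at 17.5 ± 0.222 FPKM (SD, n = 2) and above 75.7% of the background, BBS12, at 2.75 ± 0.110, and BBS10, at 2.74 ± 0.0430. HSPD1, the mitochondrial chaperonin of the other structural group, had 72.5 and 68.6 FPKM, within the range of the TRiC/CCT subunits. Its co-chaperonin HSPE1, whose transcript has 557 bases, had 3.07 and 2.72.

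Client mRNAs spanned the range from below the lowest subunit to above the highest. Of 10 actins and tubulins 6 were above FPKM 30, against 13.6% of the background, and their median was 43.3. TUBB, a beta-tubulin, had 809 and 803 FPKM, ACTG1 525 and 504, ACTB 490 and 484 and TUBA1B 109 and 112. TUBA1A, an alpha-tubulin with near-identical paralogs, had 30.9 FPKM in replicate 1 and 19.2 in replicate 2, so its libraries lay on both sides of the threshold. TUBB2A had the lowest level, 5.01 ± 1.27 FPKM (SD, n = 2). Tubulin and actin genes share long stretches of sequence with each other and with pseudogenes, so the division of reads among them is uncertain.

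Of 9 other clients 3 were above FPKM 30, against the same 13.6%, with a median of 9.61. GNB1, a beta subunit of heterotrimeric G proteins with WD40 repeats, had 234 and 229 FPKM. CDC20, which activates the anaphase-promoting complex, had 91.8 and 87.0 FPKM, and STAT3 42.4 and 41.3. GNB2, a close relative of GNB1, was the lowest of the list, at 3.51 ± 0.402 FPKM (SD, n = 2). FZR1, the relative of CDC20 that acts late in mitosis and in G1, had 4.76 and 4.62 FPKM, and cyclin E1 (CCNE1) 3.62 ± 0.0181 (SD, n = 2).

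**Figure D5:**
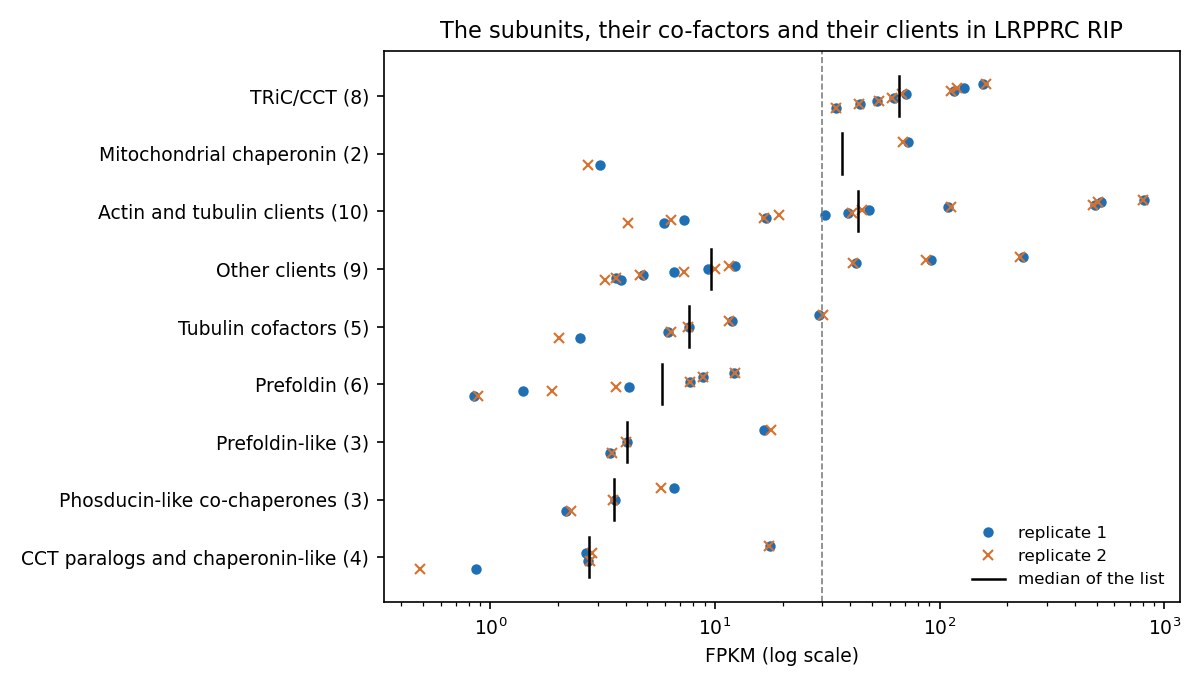
The x axis gives FPKM, log-scaled, for the genes of each list (y axis, number of genes with a row in parentheses). Circles are replicate 1, crosses are replicate 2, the black bar is the median of the list and the dashed line is FPKM 30. All 8 TRiC/CCT mRNAs lie above FPKM 30, which 13.6% of the background exceeds by mean. None of the prefoldin, prefoldin-like, phosducin-like or chaperonin-like mRNAs does, which does not set such short lists apart.

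The cells were labelled as epithelial. The keratins KRT8, KRT18, KRT7 and KRT19 had mean FPKM of 337, 51.1, 30.5 and 12.1, whereas CDH1 had 1.33 and EPCAM 0.430. Of 5 markers of leukocytes, endothelium and fibroblasts, 3 had a row and the highest, PECAM1, had 0.192 FPKM. The FPKM of all rows added up to 196627 in replicate 1 and to 194839 in replicate 2, and the sequencing depth of the libraries is unknown.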

How the data were processed

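The data are 2 RIP-seq libraries of RNA precipitated with an antibody against LRPPRC from A549, with 1 condition. The authors deposited FPKM per gene and library, made with cutadapt 1.18, HISAT2 2.1.0 on GRCh38, SAMtools and StringTie 1.3.3b against Ensembl release 101, with 4460 of the 21262 rows added by assembly. No whole reads were recovered. Of 5405 rows above 0 in both libraries whose mean was under 0.3 FPKM, no more than 76 (1.41%) had library ratios within 0.02 of each other on the log2 scale. No row had equal values above 0 in both libraries.

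Means, SDs, ranks and ratios over the 2 libraries were computed from the deposited values, and no test was made. Where a name had several rows, the row with the higher mean was kept. As background served the 10441 named genes that reached FPKM 1 in both libraries, and log2 ratios in the alternatives used a pseudocount of 1. By current or earlier symbol, 16463 of 16770 names were found in GENCODE 44 (GRCh38), a later annotation than the authors'. Copies of subunit transcripts were searched in GRCh38 with blastn 2.17.0 (word size 20), and matches of 1 strand within 20 kb were merged. Sequences were read from GRCh38.

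The members and gene lists were chosen with earlier results of these data known. Named genes are the 8 subunits, members of the lists, the highest and lowest gene of the proteasome core and of MCM2-7, and the genes next in level to the highest and lowest subunit. Statistics were tested on simulated data. Alternatives were each library alone, other thresholds, backgrounds and pseudocounts, TPM, multiplication by transcript length and leaving out subunits with near-identical copies. The scripts ran on Python 3.11.15 with pandas 2.3.3, numpy 2.4.6, matplotlib 3.10.9 and scipy 1.17.1.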

Additional observations from a re-analysis of the deposited data

How the results depend on the processing

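With a single library the ratio of the highest to the lowest subunit was 4.54 to 4.68, the SD of log2 mean FPKM 0.77 to 0.78, the percentile of the median subunit 95.1 to 95.3, and all 8 subunits stayed above FPKM 30. All 8 were also above FPKM 20, and 6 above FPKM 50. With FPKM multiplied by transcript length the ratio was 4.91, the SD 0.83 and the percentile 90.6. Without CCT8, the only subunit with a near-identical copy, the ratio was 3.62 and the SD 0.70, by construction with 1 subunit fewer. The SD was 0.77 on log2(FPKM + 1). The percentile was 97.0 among all named genes and 91.7 among those with FPKM of at least 5, because the background itself differs, and it was 95.1 among genes of like transcript length, a background chosen after seeing the data, as was leaving out the highest member of each complex. The median log2 ratio of replicate 2 to replicate 1 over the subunits was -0.019 with a pseudocount of 1 and stayed below 0 with a pseudocount of 0.1 or none and on the TPM scale. No paired analysis was possible because the libraries belong to a single condition. Counting error cannot be stated, since the sequencing depth is unknown, and 2 libraries give the SD little precision.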
